A study of Mus musculus with 191 samples.

Results

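Splicing of mouse pre-mRNA depends on a set of RNA-binding proteins, and this account concerns 40 of their genes, measured by 67 probes, out of 10004 genes and 13798 probes to which the array annotation gives a single symbol. The members were all genes whose symbol begins with Srsf, Sfrs, Hnrnp, Hnrp, Snrp, Sf3a or Sf3b, in an annotation that covered part of the array. Each of the 13798 named probes, the 67 of the members included, was detected (p of 0.05 or lower on over 80% of the arrays) in at least 1 tissue, so genes detected in no tissue are outside both the members and the count of all genes. The members comprised 9 genes of the SR family, 15 of the hnRNP family, 9 that encode proteins of the small nuclear ribonucleoprotein particles (snRNP) and 7 of splicing factor 3 (SF3). Where a gene had several detected probes, the brightest over all arrays of the tissue stood for it and the others were read beside it.

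RNA came from adult male C57BL/6J mice of 10 to 12 weeks. Treated mice received an injection of pyrazole (1 mmol/kg) with ethanol (1.6 g/kg) before each entry into ethanol vapor. Control mice received pyrazole with saline and breathed air, so that both groups carried pyrazole, an inhibitor of alcohol dehydrogenase. Exposure ran for 4 cycles of 4 days, with 16 h in the chamber on each day and a week between cycles, and mice were killed 0, 8 or 120 h after the last exposure. Amygdala (AMY), nucleus accumbens (NAC) and prefrontal cortex (PFC) were punched from frozen brain sections, and liver was taken as well. Each of the 191 Illumina MouseRef-8 arrays held the RNA of 1 tissue of 1 mouse, with 8 treated and 8 control arrays at each time and tissue, save 7 control livers at 0 h. The mice of different tissues overlap, so the tissues are not independent samples of animals.

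Genes are spliced by the spliceosome, which is built anew on each intron from snRNP particles and many further proteins. SR proteins carry an RNA-recognition domain and a tail rich in arginine and serine, bind exonic enhancers and promote the use of nearby splice sites. hnRNP proteins coat nascent transcripts and often oppose SR proteins at the same exon. The Snrp genes encode the Sm ring and the specific proteins of the U1 and U2 particles, and the SF3a and SF3b complexes hold the U2 particle at the branch point. Liver is the main site of ethanol breakdown, and in brain alternative splicing is common among transcripts of ion channels and receptors.

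The promoters of 4 SR genes whose transcripts were higher together in liver are shown here. RefSeq promoter windows of 300 bases (250 before and 50 after the transcription start, GRCm38.p6) were matched for 35 of the 40 members, with none for Hnrnpll, Sf3b4, Sf3b5, Snrpb and Snrpd1. Capitals mark matches, on the strand shown or its complement, to 3 motifs: GGGCGG, known as the GC box, CCAAT, and TATAAA, known as the TATA box. Overlapping matches run together. The windows lie at chr11:116853045-116853344 on the minus strand for Srsf2, and on the plus strand at chr4:131873387-131873686 for Srsf4 (the first of 3 windows listed for it), chr12:80945249-80945548 for Srsf5 and chr2:162931258-162931557 for Srsf6.
Srsf2: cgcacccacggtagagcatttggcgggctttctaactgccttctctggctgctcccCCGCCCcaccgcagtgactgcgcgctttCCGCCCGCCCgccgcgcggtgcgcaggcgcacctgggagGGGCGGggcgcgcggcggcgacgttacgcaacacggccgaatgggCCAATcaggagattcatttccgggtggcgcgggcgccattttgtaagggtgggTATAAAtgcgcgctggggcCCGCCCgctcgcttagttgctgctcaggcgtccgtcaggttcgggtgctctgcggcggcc
Srsf4: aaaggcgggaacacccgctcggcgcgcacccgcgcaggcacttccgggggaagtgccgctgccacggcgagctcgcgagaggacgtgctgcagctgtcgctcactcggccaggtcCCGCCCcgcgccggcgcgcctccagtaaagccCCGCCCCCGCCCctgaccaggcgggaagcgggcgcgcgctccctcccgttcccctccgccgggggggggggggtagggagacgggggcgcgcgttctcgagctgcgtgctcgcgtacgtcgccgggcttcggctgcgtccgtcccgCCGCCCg
Srsf5: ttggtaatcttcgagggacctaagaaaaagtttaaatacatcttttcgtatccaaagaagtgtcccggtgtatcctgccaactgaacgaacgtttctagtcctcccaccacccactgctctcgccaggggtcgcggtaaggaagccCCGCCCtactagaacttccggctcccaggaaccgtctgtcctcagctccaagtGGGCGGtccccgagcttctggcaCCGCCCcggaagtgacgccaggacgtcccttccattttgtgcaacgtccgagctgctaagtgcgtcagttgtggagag
Srsf6: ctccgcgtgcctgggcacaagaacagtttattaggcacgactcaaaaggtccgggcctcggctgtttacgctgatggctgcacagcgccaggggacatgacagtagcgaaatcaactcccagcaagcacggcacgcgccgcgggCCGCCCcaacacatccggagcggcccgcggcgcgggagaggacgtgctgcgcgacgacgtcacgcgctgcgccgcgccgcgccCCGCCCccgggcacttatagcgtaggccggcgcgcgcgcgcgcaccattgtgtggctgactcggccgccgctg

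These 4 windows held 5, 4, 3 and 2 GC boxes in the order shown, and a CCAAT and a TATA box were found in the Srsf2 window. A GC box was present in 23 of the 35 member promoters (65.7%), against 35.7% of all 32851 windows of this length. CCAAT was present in 54.3% of member promoters, against 37.4% of all windows, and a TATA box in 17.1%, against 13.6%. The cyclic AMP response element TGACGTCA was found in 2 member promoters (5.71%), against 1.79% of all windows, and the E-box CACGTG in 4 (11.4%), against 7.15%. Guanine and cytosine made up a median of 59% of member windows and 52.7% of all windows. Members were counted by the first window listed for each gene. The set of all windows holds several for some genes and was not limited to genes detected here. These matches describe letters in a window and not bound sites.

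The median deposited intensity of an array lay between 90.26 and 126.2, and between 11297 and 14833 probes were detected on it. The labelled organs were checked against markers. At 0 and 8 h the 2 neuronal markers measured in liver, of 10 listed, summed to 213 to 254 intensity units, near background. Of these, 1 was higher in treated liver at each of these times. At 120 h their sums were 247 to 308. Hepatocyte markers in liver summed to at least 53930. Hba-a1, the alpha globin of red cells, was lower in treated mice in AMY, NAC and liver at 0 and 8 h (log2 fold change -1.12 in NAC and -1.65 in liver at 0 h). Both measured red cell markers of 4 listed were lower in treated liver, with sums of 536 to 2076 in treated and 2146 to 6063 in control mice at 0 h. In liver, 3 of 5 measured Kupffer cell markers of 8 listed were higher in treated mice at 0 h, with a summed intensity of 2385 to 3634 in treated and 1561 to 3067 in control mice, and the same count at 8 h had sums of 2564 to 3883 and 1753 to 2776. At 8 h, 3 of 4 measured sinusoid endothelium markers were also higher in treated liver (3310 to 4655, against 2806 to 3434 in controls), while 1 of 6 hepatocyte markers was higher and 1 was lower. The part of these shifts in the results for liver below was not tested, and in tissue RNA fewer cells of a type cannot be told apart from less RNA per cell.

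A member was counted as changed when limma's adjusted p (Benjamini-Hochberg, over all detected probes of the tissue) was 0.05 or lower. On this rule 16 of the 40 members changed in treated against control mice in at least 1 tissue and time, in 23 calls, and 24 did not. Of the calls, 10 fell in brain (7 genes) and 13 in liver (12 genes). Of all genes tested, 21.8% changed in liver at 0 h and 32.3% at 8 h, against 1.69% to 8.16% in brain at these times. The larger number of calls in liver is therefore not particular to the members. The share of all genes changed in at least 1 tissue and time was not counted. By the brightest probe the changes were small as measured. The highest fold was 1.48, for Srsf2 in liver at 8 h, and the lowest was 0.637, for Snrpn in the same comparison. No background was subtracted, so folds of dim members are compressed. Over 8 other ways of processing, log2 fold changes in liver at 0 h ran from -0.752 to -0.222 for Srsf3. For Sf3b6 they ran from -0.304 to -0.078. A dimmer Srsf5 probe reached 0.83 in liver at 8 h. The calls lay at 0 and 8 h, and none at 120 h. Of the 23 calls, 13 were of members with further detected probes, of which another passed in the same direction in 7 and none did in 6.

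**Figure D1:**
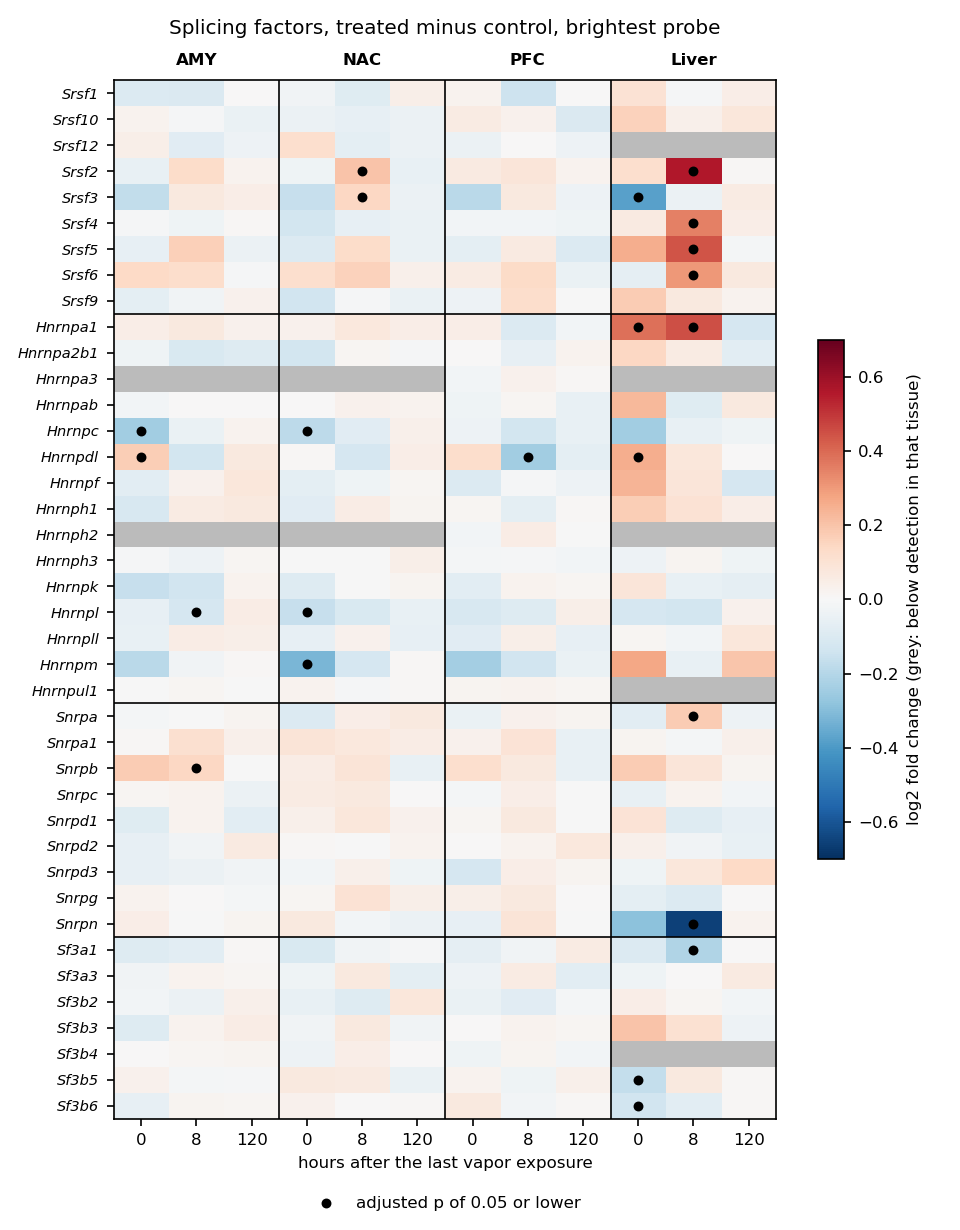
Heat map of the log2 fold change, treated minus control, of each of the 40 members (lines, grouped by family) by tissue and hours after the last vapor exposure; dots mark an adjusted p of 0.05 or lower and grey marks genes below detection. The dots lie at 0 and 8 h, with 13 of 23 in liver. There 21.8% of all genes passed at 0 h and 32.3% at 8 h. The 4 SR genes Srsf2, Srsf4, Srsf5 and Srsf6 are high in liver at 8 h.

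In liver 8 h after the last exposure, 4 of 8 measured SR genes were higher in treated than in control mice, and none was lower. Of all 7372 genes tested there, 32.3% changed, 15.1% upward and 17.2% downward, so the background in liver was high. The median log2 fold change of the SR genes was 0.18, with 6 of 8 positive, against 0.00 over all genes. Srsf2, an activator of exon inclusion long known as SC35, ranged from 10.49 to 11.43 (median 10.90) on the log2 scale in treated livers and from 10.25 to 10.46 (median 10.38) in control livers. Every treated liver lay above every control liver, and the treated livers were spread more widely than the controls. The log2 fold change was 0.56 ± 0.0966 (SE, adjusted p = 0.000365), or 47.7% more signal. A dimmer Srsf2 probe also passed (0.36 ± 0.101, adjusted p = 0.0125).

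Srsf4, a large SR protein with a long arginine and serine tail, ranged from 8.35 to 8.74 (median 8.56) in treated and from 8.16 to 8.28 (median 8.19) in control livers at 8 h. The 2 groups did not overlap, and the controls were tightly clustered. Its log2 fold change was 0.35 ± 0.0516 (adjusted p = 8.71e-05). Srsf6, which like the others acts on exonic enhancers, ranged from 9.001 to 9.33 (median 9.20) in treated and from 8.59 to 9.02 (median 8.91) in control livers, and 7 of 8 treated livers lay above all controls (0.30 ± 0.0596, adjusted p = 0.00117). Srsf5, first described as an insulin-induced gene of liver cells, ranged from 8.94 to 9.52 (median 9.30) in treated and from 8.64 to 9.05 (median 8.84) in control livers by its brightest probe. Again 7 of 8 treated livers exceeded all controls (0.44 ± 0.0833, adjusted p = 0.000785).

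**Figure D2:**
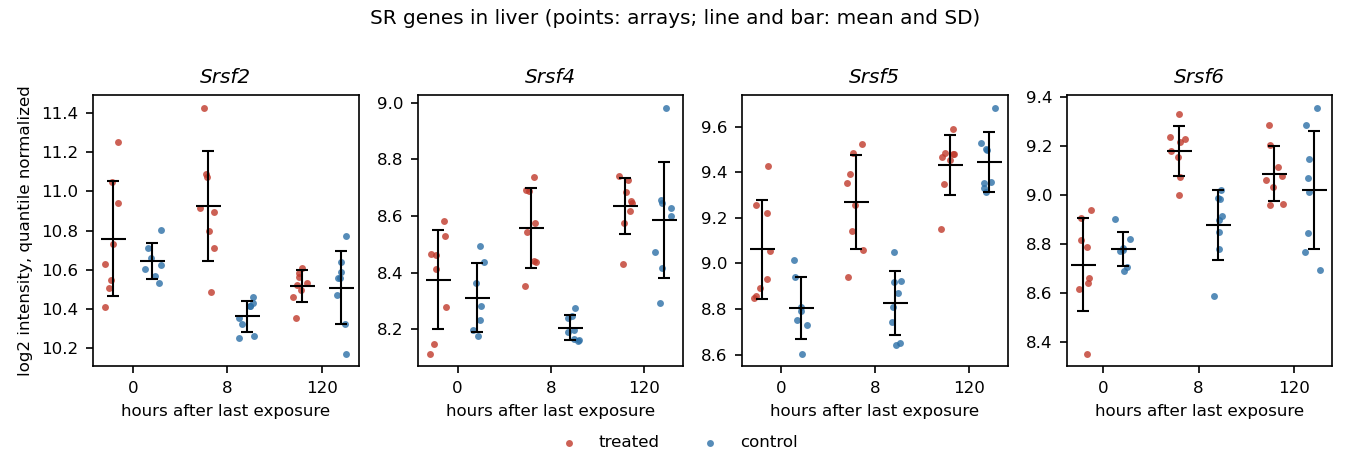
Log2 intensity after quantile normalization of Srsf2, Srsf4, Srsf5 and Srsf6 in liver, with treated mice left of control mice at 0, 8 and 120 h after the last exposure; points are arrays (n = 8, and 7 controls at 0 h) and lines with bars are the mean and SD. At 8 h the treated arrays of Srsf2 and Srsf4 all lie above the control arrays, and at 120 h the groups overlap for all 4 genes.

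At 0 h these 4 genes did not pass by their brightest probes. Srsf2 had log2 values of 10.41 to 11.25 (median 10.68) in treated and 10.53 to 10.80 (median 10.62) in control livers, and Srsf5 differed by 0.26 ± 0.0909 (adjusted p = 0.0592). By 120 h the log2 fold changes of the 4 genes lay between -0.01 and 0.07. The SR gene that changed at 0 h was Srsf3, the smallest SR protein, which also takes part in mRNA export. It ranged from 6.89 to 7.05 (median 6.95) in treated and from 7.15 to 7.53 (median 7.33) in control livers, so all 8 treated livers lay below all 7 controls. Its log2 fold change was -0.38 ± 0.0502 (adjusted p = 0.000183), and its other probe gave -0.36 ± 0.0606. Srsf3 was dim in liver, at a median control intensity of 153. In this comparison 21.8% of all genes passed, 12.2% downward.

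Srsf5 was measured by 2 probes, and the dimmer one moved more. By probe ILMN_2772274, Srsf5 ranged in liver at 8 h from 8.91 to 9.57 (median 9.30) in treated and from 8.24 to 8.76 (median 8.45) in control mice, with no overlap (0.83 ± 0.0848, adjusted p = 3.47e-06). At 0 h the same probe ranged from 8.83 to 9.29 (median 9.18) in treated and from 8.34 to 8.71 (median 8.44) in control livers, also without overlap (0.67 ± 0.0774). In PFC at 8 h it ranged from 9.06 to 9.70 (median 9.26) in treated and from 8.43 to 9.02 (median 8.91) in control mice. All 8 treated PFC arrays exceeded all controls (0.45 ± 0.0838, adjusted p = 0.00504), whereas the brighter probe gave 0.06 ± 0.0775 (adjusted p = 0.704). In NAC at 8 h the dimmer probe gave 0.30 ± 0.0805 (adjusted p = 0.0307) and in AMY 0.27 ± 0.099 (adjusted p = 0.166). Which transcripts each probe reads was not analysed here, and the difference between the probes was not tested.

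**Figure D3:**
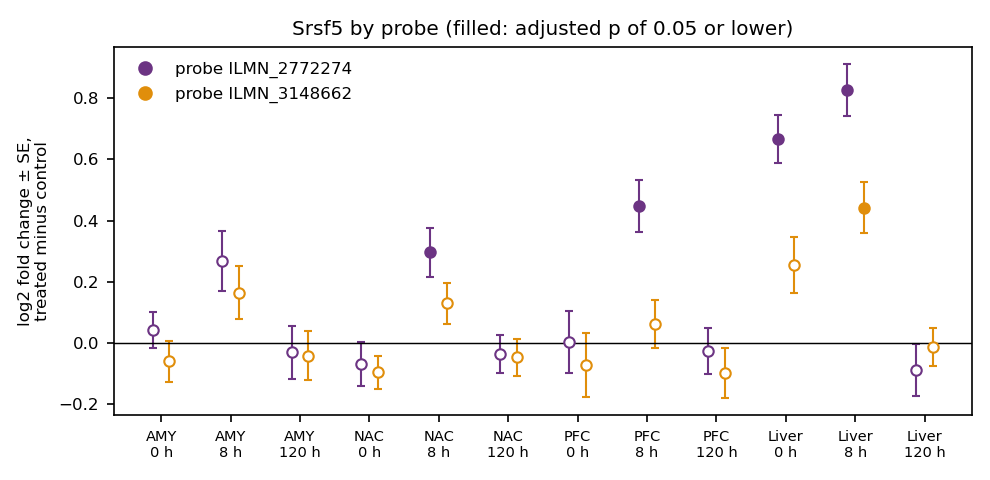
Log2 fold change with its SE, treated minus control, of Srsf5 by probe in each tissue and at each time (horizontal axis); filled points passed an adjusted p of 0.05. The dimmer probe ILMN_2772274 reaches 0.83 in liver at 8 h, against 0.44 for the brightest probe, and both lie near 0 at 120 h.

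In NAC at 8 h, Srsf2 and Srsf3 were the members that rose, 2 of 38 measured (5.26%), against 7.79% of all genes in either direction and 4.36% upward. Srsf2 ranged from 10.71 to 10.95 (median 10.85) in treated and from 10.53 to 10.77 (median 10.65) in control mice, and 6 of 8 treated arrays exceeded all controls (0.20 ± 0.043, adjusted p = 0.00831). Srsf3 ranged from 8.46 to 8.70 (median 8.55) in treated and from 8.36 to 8.53 (median 8.41) in control mice, with 5 of 8 treated arrays above all controls (0.14 ± 0.0386, adjusted p = 0.0299). The other probes did not pass: those of Srsf2 gave 0.05 ± 0.0331 and 0.05 ± 0.0752 (adjusted p of 0.409 and 0.747), and that of Srsf3 gave 0.09 ± 0.0332 (adjusted p = 0.117). At 0 h the Srsf3 difference was -0.16 ± 0.0482 in NAC (adjusted p = 0.0511), -0.17 ± 0.05 in AMY (adjusted p = 0.0621) and -0.19 ± 0.081 in PFC (adjusted p = 0.223), none of which passed. In AMY at 8 h the brightest Srsf2 probe gave 0.13 ± 0.0402 (adjusted p = 0.0851) and the dimmer one passed (0.20 ± 0.0464, adjusted p = 0.0232). Beside these calls in NAC, 3 of 6 microglial, 3 of 7 oligodendrocyte and 2 of 8 astrocyte markers were higher in treated mice, with summed intensities of 1415 to 1776, 17490 to 21930 and 11800 to 13220 in treated, against 1303 to 1550, 14470 to 22210 and 11120 to 13500 in control mice. Of 5 neuronal markers 1 was lower (9674 to 10600 in treated, against 9900 to 12650 in control mice). Their part in the result was not tested.

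The hnRNP calls in brain lay mainly at 0 h and downward. In NAC at 0 h, 3 of the 38 measured members changed, a share close to the 8.16% of all genes. All 3 were hnRNP genes that fell, and 4.29% of all genes fell. Hnrnpm, which binds GU-rich RNA and represses or activates exons, ranged from 10.28 to 10.72 (median 10.45) in treated and from 10.69 to 10.87 (median 10.78) in control mice. In 7 of 8 treated arrays it lay below every control, and it fell by 19.9% (-0.32 ± 0.0551, adjusted p = 0.00304). All 3 of its probes passed, the other two at -0.40 and -0.33 with no overlap between groups. Hnrnpl, which binds CA repeats, ranged from 10.06 to 10.19 (median 10.12) in treated and from 10.13 to 10.37 (median 10.29) in control mice, and 6 of 8 treated arrays lay below all controls (-0.16 ± 0.0317, adjusted p = 0.00604). Hnrnpc, which binds uridine tracts and packages nascent transcripts, ranged from 11.53 to 11.81 (median 11.59) in treated and from 11.61 to 11.89 (median 11.82) in control mice, and 5 of 8 treated arrays lay below all controls (-0.18 ± 0.0446, adjusted p = 0.0195). The snRNP gene Snrpa, which encodes the A protein of the U1 particle, passed by a dimmer probe (-0.17 ± 0.042) and not by its brightest. In the same comparison 3 of 5 thalamus markers were higher in treated mice (summed intensity 920 to 1048, against 854 to 940 in controls) and 1 of 4 striatal projection neuron markers was lower (10690 to 14600, against 13190 to 15680). Of 7 oligodendrocyte markers 2, Cnp (-0.24) and Mag (-0.29), were lower, none had a positive log2 fold change and the median was -0.23, with sums of 15880 to 21680 in treated and 15790 to 23470 in control mice. The part of tissue composition in these calls was not tested. The count of changed members was 7 with all 6 groups in 1 fit and 6 with the authors' processed values.

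**Figure D4:**
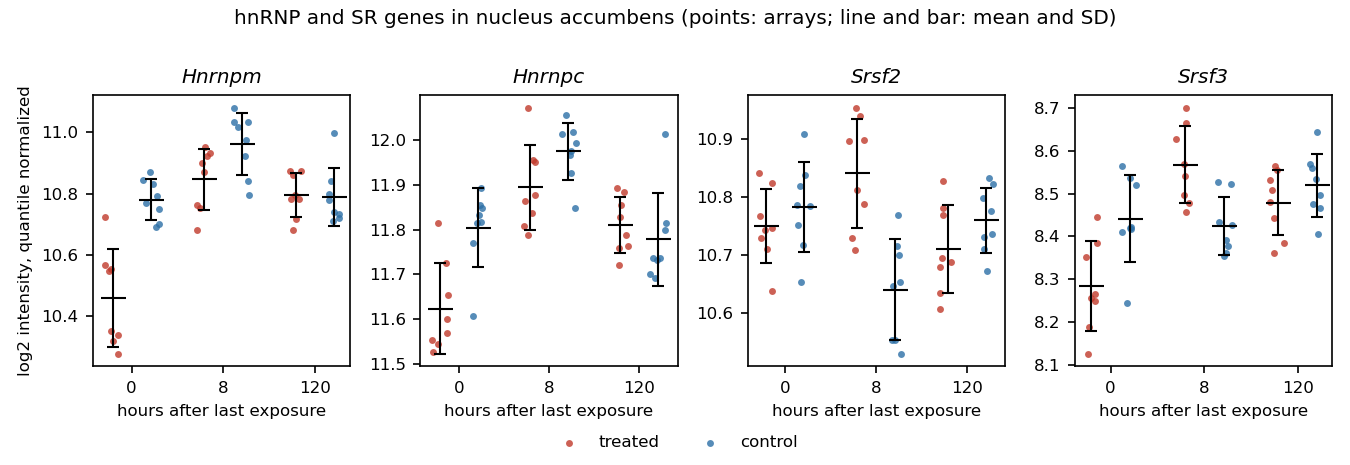
Log2 intensity after quantile normalization of Hnrnpm, Hnrnpc, Srsf2 and Srsf3 in nucleus accumbens, with treated mice left of control mice at 0, 8 and 120 h; points are arrays (n = 8 a group) and lines with bars are the mean and SD. At 0 h Hnrnpm is lower in 7 of 8 treated arrays than in every control, and at 8 h Srsf2 is higher in 6 of 8 treated arrays than in every control.

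In AMY at 0 h, 2 of 38 members changed (5.26%), against 4.33% of all genes. The count was 1 without a detection filter or with normexp, 4 with all 6 groups in 1 fit or with the authors' processed values, and 5 without the array of lowest correlation in each group. Hnrnpc ranged from 11.41 to 11.71 (median 11.49) in treated and from 11.52 to 11.90 (median 11.80) in control mice, and 5 of 8 treated arrays lay below all controls (-0.24 ± 0.0563, adjusted p = 0.0201). Hnrnpdl, a relative of the AU-rich element binding protein Hnrnpd, ranged from 9.84 to 10.18 (median 10.02) in treated and from 9.72 to 9.94 (median 9.86) in control mice, and 6 of 8 treated arrays lay above all controls (0.17 ± 0.0459, adjusted p = 0.041). In all, 11 of 13 measured hnRNP genes had a negative log2 fold change in AMY at 0 h, with a median of -0.05 against 0.00 over all genes. Their signs come from the same arrays and are not independent. Hnrnpm there gave -0.19 ± 0.0578 by its brightest probe (adjusted p = 0.0717), and its other probes passed at -0.29 ± 0.0472 and -0.25 ± 0.0517. The second probes of Hnrnpc (-0.12, adjusted p = 0.354) and Hnrnpdl (0.16, adjusted p = 0.141) had the same sign and did not pass. Beside these values, 1 of 3 endothelial markers was lower (1179 to 1504 in treated, against 1256 to 1387 in control mice), and 2 of 5 thalamus markers and 1 of 6 neuronal markers were lower in treated mice (summed intensity 1027 to 1185 and 12390 to 14810, against 1071 to 1224 and 13540 to 14470 in controls), and their part was not tested.

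In AMY at 8 h the members that changed were Hnrnpl and Snrpb, 2 of 38, against 3.31% of all genes. Hnrnpl ranged from 9.82 to 10.02 (median 9.98) in treated and from 10.03 to 10.14 (median 10.06) in control mice. Every treated array lay below every control, although the change was small, and the level fell by 7.77% (-0.12 ± 0.0312, adjusted p = 0.0481). Snrpb, the B protein of the Sm ring, ranged from 9.61 to 9.92 (median 9.73) in treated and from 9.51 to 9.63 (median 9.58) in control mice, and 6 of 8 treated arrays exceeded all controls (0.15 ± 0.0388, adjusted p = 0.047). Its second probe passed too (0.20 ± 0.0491, adjusted p = 0.03). Beside these calls, 2 of 6 microglial (1481 to 2006 in treated, against 1325 to 1828 in control mice), 1 of 3 endothelial (1199 to 1569, against 1153 to 1376) and 1 of 5 thalamus markers (1011 to 1149, against 983 to 1129) were higher. Of 7 oligodendrocyte markers 1 was lower (13710 to 21430 in treated, against 15180 to 17790 in control mice), and the part of these markers was not tested. The calls in AMY stood close to the threshold: of 8 other ways of processing, Snrpb was called in 2, Hnrnpl in 3, Hnrnpdl at 0 h in 3 and Hnrnpc at 0 h in 7. Without the array of lowest correlation in each group, the adjusted p was 0.0579 for Hnrnpl, 0.104 for Snrpb and 0.0515 for Hnrnpdl.

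In PFC at 0 h none of 40 members passed, against 1.69% of all genes. The members of smallest p were Hnrnpm (-0.24 ± 0.0875, adjusted p = 0.161) and Snrpd3 (-0.12 ± 0.0482, adjusted p = 0.217). At 8 h 1 of 40 passed (2.5%), against 6.46% of all genes. Hnrnpdl ranged from 9.73 to 10.12 (median 9.79) in treated and from 10.01 to 10.15 (median 10.10) in control mice. In 7 of 8 treated arrays it lay below every control (-0.24 ± 0.0478, adjusted p = 0.00675). Its other probe gave 0.02 ± 0.0781 (adjusted p = 0.936), and with both averaged the call was lost (-0.11, adjusted p = 0.212). The count of changed members was 3 with the authors' processed values, and 2 under median scaling or without the array of lowest correlation in each group. Of the cell markers, 1 of 7 for oligodendrocytes, 1 of 5 for thalamus and both for red cells were lower (6600 to 9394, 1236 to 1511 and 622 to 3505 in treated, against 7355 to 9599, 1263 to 1648 and 1743 to 4349 in control mice), and 1 of 3 for endothelium was higher (1698 to 1910, against 1499 to 1956). Their part was not tested. All 9 snRNP genes had positive log2 fold changes in PFC at 8 h, with a median of 0.07, against 0 over all probes, and none passed. These genes were read on the same arrays, so their signs are not independent. Dimmer probes of Hnrnpm (-0.14 ± 0.0386) and Srsf1 (-0.12 ± 0.0353) passed at 8 h without their brightest probes.

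In liver at 0 h, 2 of 12 measured hnRNP genes rose, against 9.55% of all genes upward. Hnrnpa1, which opposes SR proteins in the choice between splice sites, ranged from 7.68 to 8.23 (median 8.01) in treated and from 7.34 to 7.80 (median 7.64) in control livers. It lay above all controls in 7 of 8 treated livers, with 30.8% more signal (0.39 ± 0.0894, adjusted p = 0.00761). Hnrnpdl ranged from 8.65 to 9.13 (median 8.87) in treated and from 8.49 to 8.71 (median 8.55) in control livers, and 5 of 8 treated livers exceeded all controls (0.25 ± 0.0667, adjusted p = 0.0161). At 8 h Hnrnpa1 again ranged higher, from 7.64 to 8.33 (median 7.92) in treated and from 7.33 to 7.81 (median 7.46) in control livers. The groups overlapped, with 6 of 8 treated livers above all controls (0.45 ± 0.089, adjusted p = 0.00109). Hnrnpa1 therefore passed at both times in liver, while in the 3 brain regions it did not pass at either. Dimmer probes of Hnrnpc at 0 h (-0.24 ± 0.0589), and of Hnrnpdl (0.20 ± 0.0626) and Hnrnph1 (0.10 and 0.22) at 8 h passed as well.

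Among the snRNP genes in liver at 8 h, Snrpn and Snrpa changed, in opposite directions. Snrpn encodes SmN, a tissue-specific form of the Sm ring's B protein, from an imprinted locus, and it is best known from neurons. In liver it ranged from 8.08 to 8.53 (median 8.24) in treated and from 8.80 to 9.06 (median 8.94) in control mice at 8 h. No treated liver reached the lowest control, and the level fell by 36.3% (-0.65 ± 0.0622, adjusted p = 1.84e-06). At 0 h Snrpn had values of 7.99 to 8.93 (median 8.45) in treated and of 8.42 to 9.06 (median 8.79) in control livers, which overlapped (-0.29 ± 0.152, adjusted p = 0.193), and at 120 h the difference was 0.02 ± 0.121. Snrpa ranged at 8 h from 8.24 to 8.61 (median 8.42) in treated and from 8.15 to 8.37 (median 8.26) in control livers, with 7 of 8 treated livers above all controls (0.17 ± 0.0465, adjusted p = 0.00894). Its other probe gave 0.12 ± 0.0663 (adjusted p = 0.17). The other 7 snRNP genes did not pass in liver at 0 or 8 h.

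SF3 genes changed in liver alone among the tissues by this rule, and each fell. At 0 h Sf3b5, a small subunit of SF3b, ranged from 9.26 to 9.63 (median 9.51) in treated and from 9.60 to 9.71 (median 9.66) in control livers, with 7 of 8 treated livers below all controls (-0.17 ± 0.0526, adjusted p = 0.0343). Its call was lost in 4 of 8 other ways of processing, one of them without the array of lowest correlation in each group (adjusted p = 0.0998). Sf3b6, the subunit that touches the branch-point adenosine, ranged from 6.79 to 6.97 (median 6.93) in treated and from 6.97 to 7.14 (median 7.03) in control livers, with 6 of 8 below all controls (-0.13 ± 0.0379, adjusted p = 0.0221). Sf3b6 was dim in liver, at a median control intensity of 131. At 8 h Sf3a1, the largest subunit of SF3a, ranged from 7.88 to 8.38 (median 8.09) in treated and from 8.22 to 8.50 (median 8.32) in control livers, and 6 of 8 treated livers lay below all controls (-0.21 ± 0.0622, adjusted p = 0.0174). In total 5 of 35 members (14.3%) passed in liver at 0 h and 8 of 35 (22.9%) at 8 h, each a smaller share than over all genes. With all 6 groups in 1 fit 12 members passed at 0 h, and with the replicate number as a block on the authors' values 3 passed.

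At 120 h no member passed in any tissue, and 0% of all genes did. At an unadjusted p of 0.05, 1 member was past in AMY, against 3.29% of all genes, 1 in NAC (5.02%), 1 in PFC (3.55%) and 4 for liver (8%). The smallest p in each tissue belonged to Hnrnpf in AMY (0.08 ± 0.0319), Sf3a3 in NAC (-0.07 ± 0.028), Srsf10 in PFC (-0.10 ± 0.0468) and Hnrnpm in liver (0.20 ± 0.0591, adjusted p = 0.346), followed by Snrpd2 (0.07 ± 0.0336), Snrpa (0.07 ± 0.0345), Sf3a3 (-0.07 ± 0.0427) and Hnrnpf (-0.12 ± 0.0467) in the same tissues.

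Kinases that phosphorylate the tails of SR proteins were measured for 6 of 9 listed genes in AMY, NAC and liver and for 7 in PFC. At 0 h, 2 of 6 fell in AMY (33.3%), against 4.33% of all genes changed, 2 of 6 in NAC (33.3%), against 8.16%, and 1 of 7 in PFC (14.3%), against 1.69%. None rose. Srpk1, which acts in the cytoplasm and admits SR proteins to the nucleus, fell at 0 h in all 3 brain regions, with log2 fold changes of -0.24 ± 0.0531 in AMY (adjusted p = 0.0154), -0.31 ± 0.0482 in NAC (adjusted p = 0.00174) and -0.44 ± 0.0821 in PFC (adjusted p = 0.0119). In liver it gave -0.11 (adjusted p = 0.621). Clk4, a nuclear kinase of the same substrates, fell in AMY at 0 h (-0.17, adjusted p = 0.0333) and 8 h (-0.19, adjusted p = 0.0119) and in NAC at 0 h (-0.24, adjusted p = 0.00379). The median over the 6 kinases was -0.09 in AMY and -0.14 in NAC at 0 h, against 0.00 over all genes in each. No kinase passed in liver at 0 or 8 h or in any tissue at 120 h.

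Of 80 other listed spliceosome proteins, 58 to 60 were measured in a tissue. In liver at 8 h, 10 of 58 rose and 5 fell, a share of 25.9% against 32.3% of all genes, with Luc7l (0.32), Prpf18 (0.26) and Srrm2 (0.24) higher and Usp39 (-0.23) lower in treated mice. At 0 h, 3 were higher and 2 lower in treated liver (8.62%, against 21.8% of all genes), among them Dhx38 (-0.19), Bud31 (-0.28), Wbp11 (0.23) and Prpf6 (0.24). In NAC at 0 h 6 of 60 fell (10%), against 4.29% of all genes downward, and none rose, among them Puf60 (-0.14), Ddx39b (-0.18), Snrnp35 (-0.13) and Cdc5l (-0.14). Elsewhere in brain at most 1 passed in a direction: Sf1 in AMY at 0 h (-0.18), Luc7l (-0.14) and Ctnnbl1 (0.14) in NAC at 8 h, and Lsm10 (-0.23) and Slu7 (0.21) in PFC at 8 h.

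Of 53 other listed splicing regulators, 28 were measured in liver, where 7 were higher and 1 lower in treated mice at 0 h (28.6%, against 21.8% of all genes), and 8 were higher and none lower at 8 h (28.6%, against 32.3%). Upward shares were 25% at 0 h and 28.6% at 8 h, against 9.55% and 15.1% of all genes. The median log2 fold change was 0.13 at 0 h and 0.09 at 8 h, against 0.01 and 0.00 over all genes. The leading genes were Matr3 (0.58), Mbnl2 (0.42), Pcbp2 (0.27) and Rbm4 (-0.29) at 0 h, and Tardbp (0.17), Pcbp2 (0.35), Khsrp (0.17) and Fubp1 (0.24) at 8 h. In brain 36 or 37 were measured, at most 2 passed in a tissue and time (a share of at most 5.56%, against 3.31% to 8.16% of all genes in those comparisons), and each that passed fell: Rbm4b (-0.26) and Khdrbs1 (-0.21) in AMY at 0 h, Tia1 (-0.15) in AMY at 8 h, Tra2a (-0.33) and Mbnl2 (-0.14) in NAC at 0 h, Rbm5 (-0.15) and Elavl2 (-0.27) in NAC at 8 h, and Rbm5 (-0.26) and Tia1 (-0.23) in PFC at 8 h. No gene of either list passed at 120 h.

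Whether the effect of vapor differed between 8 and 0 h was tested as the treated minus control difference at 8 h minus that at 0 h. In liver 5 of 35 members passed (14.3%), against 5.28% of all genes, and all 5 differences were positive. Over all genes 3.19% passed upward. Srsf2 gave 0.45 ± 0.137 (SE, adjusted p = 0.0453), Srsf6 0.36 ± 0.110 (adjusted p = 0.0410) and Srsf3 0.34 ± 0.0801 (adjusted p = 0.00701). Sf3b5 gave 0.24 ± 0.0683 (adjusted p = 0.0329) and Snrpa 0.25 ± 0.0762 (adjusted p = 0.0430). Srsf3 and Sf3b5 were lower in treated livers at 0 h and had log2 fold changes of -0.04 ± 0.0552 and 0.07 ± 0.0485 at 8 h. Srsf2, Srsf6 and Snrpa had 0.12 ± 0.11, -0.06 ± 0.074 and -0.08 ± 0.0546 at 0 h and were higher at 8 h. The controls themselves moved for some of these genes, as given below. At 8 against 0 h, Sf3b5 (liver) and Srsf2 (liver and NAC) were lower and Snrpa (liver) was higher in controls. The fall of Sf3b5 in controls was close in size to its difference of effects. For Srsf2 the fall in controls was the larger part of its difference of effects in liver and in NAC. In NAC 3 of 38 passed (7.89%), against 2.76% of all genes, with Srsf3 at 0.30 (adjusted p = 0.00372), Srsf2 at 0.23 (adjusted p = 0.0126) and Srsf12, which passed at neither time, at -0.18 (adjusted p = 0.0468). In PFC Hnrnpdl alone passed by its brightest probe, at -0.37 (adjusted p = 0.00852), against 4.36% of all genes. The dimmer Srsf5 probe ILMN_2772274 also passed in PFC (0.44, adjusted p = 0.04655), and the brightest did not (0.13, adjusted p = 0.652). By another probe Hnrnpdl gave 0.01 in PFC (adjusted p = 0.974), Srsf2 0.16 in liver (adjusted p = 0.640) and 0.03 and 0.09 in NAC (adjusted p of 0.777 and 0.748), and Snrpa 0.15 in liver (adjusted p = 0.346), none of which passed, whereas the other Srsf3 probe passed in liver and NAC (0.31 and 0.29). In AMY no brightest probe of a member passed, against 0.607% of all genes, and a dimmer Hnrnpm probe gave 0.27 (adjusted p = 0.0426). The dimmer Hnrnpm probes also passed in NAC, at 0.332 (adjusted p = 0.003165) and 0.259 (adjusted p = 0.02296). The brightest Hnrnpm probe did not pass there (0.204, adjusted p = 0.1097). Without a detection filter 1 liver member passed in place of 5. Of 4 other ways of processing, the call was lost in 3 for Srsf12 in NAC and for Snrpa in liver. It was lost in 2 for Sf3b5 and in 1 for Srsf2 and Srsf6 in liver. The calls of Srsf3 in liver and NAC, Srsf2 in NAC and Hnrnpdl in PFC were kept in all 4. Differences between tissues were not tested.

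The control mice, which breathed air, also differed between times, and these contrasts share their 0 h arrays with each other and their control arrays with the comparisons above. At 8 against 0 h, 7 of 38 members changed in AMY (18.4%), against 10.9% of all genes, and 4 of 38 in NAC (10.5%), against 11.2%. The count was 2 of 40 for PFC (5%), against 4% of all genes, both higher (2.5% upward over all genes), and 6 of 35 for liver (17.1%), against 13.8%. Of these 19 calls, 13 were of members with further detected probes, and another probe passed in the same direction in 1 of them. Hnrnpc by its brightest probe was higher at 8 h in all 4 tissues, and by its other probe it gave 0.12 for AMY, 0.04 for NAC, 0.16 for PFC and -0.003 for liver, none of which passed. In AMY it ranged from 11.91 to 12.11 (median 11.98) at 8 h and from 11.52 to 11.90 (median 11.80) at 0 h, with no overlap (0.21 ± 0.0428, adjusted p = 0.00226). In PFC it ranged from 11.90 to 12.11 (median 11.99) at 8 h and from 11.46 to 11.87 (median 11.68) at 0 h, again with no overlap (0.33 ± 0.0473, adjusted p = 0.000309). In NAC 7 of 8 and in liver 5 of 8 arrays at 8 h exceeded all arrays at 0 h (0.17 ± 0.042 and 0.20 ± 0.0522). The mean log2 level of Hnrnpc in control PFC was 11.68 at 0 h, 12.00 at 8 h and 11.72 at 120 h, and in control liver it was 11.45, 11.65 and 10.88. Time of day at killing is not given in the sources used here. For 8 against 0 h, hours since the last exposure and time of day cannot be told apart. The 120 h time lies whole days after the last exposure. Between 120 and 0 h in controls, time since the last pyrazole injection and time since the chamber cannot be told apart.

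**Figure D5:**
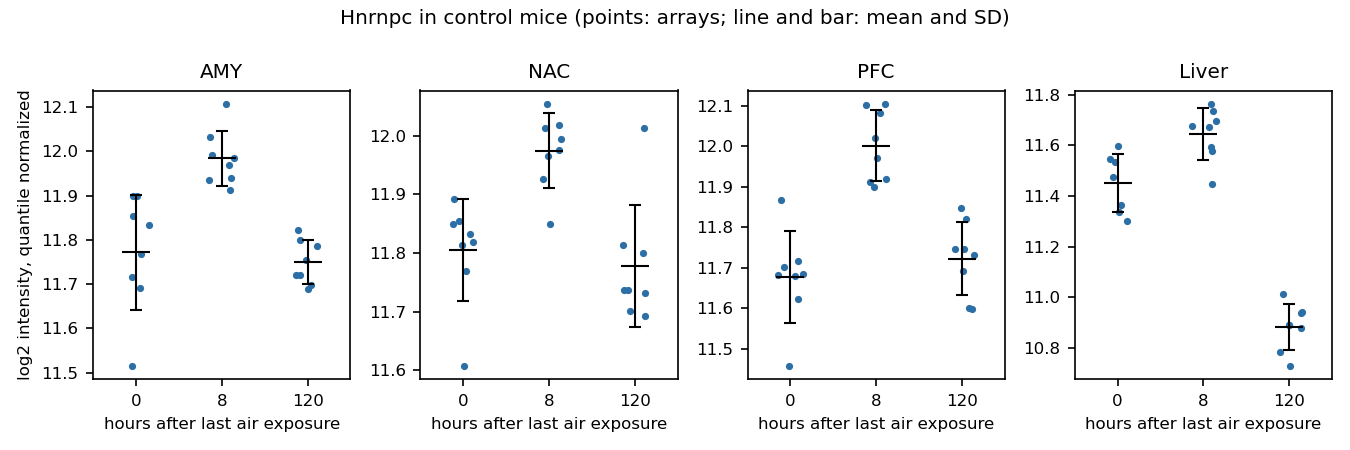
Log2 intensity after quantile normalization of Hnrnpc in control mice at 0, 8 and 120 h after the last air exposure, by tissue; points are arrays (n = 8, and 7 in liver at 0 h) and lines with bars are the mean and SD. The 8 h arrays are the highest group in each tissue, and in liver the 120 h arrays lie below all others.

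The remaining members that changed in controls between 8 and 0 h were mostly particular genes in particular tissues. Srsf2 was lower at 8 h in NAC (-0.14 ± 0.0373, adjusted p = 0.0156) and in liver, where it ranged from 10.25 to 10.46 (median 10.38) at 8 h and from 10.53 to 10.80 (median 10.62) at 0 h with no overlap (-0.28 ± 0.0651, adjusted p = 0.0055). Beside the comparison of treated with control livers at 8 h, which uses the same controls, the mean Srsf2 level was 10.92 in treated and 10.36 in control livers at 8 h, and 10.76 in treated and 10.64 in control livers at 0 h. Hnrnpm was higher at 8 h in NAC (0.18 ± 0.0426) and liver (0.23 ± 0.0658), and Srsf4 in AMY (0.14 ± 0.037) and PFC (0.13 ± 0.035). In AMY, Sf3a1 (0.10 ± 0.0311) and Hnrnpll (0.15 ± 0.0463) were also higher, while Hnrnpa1 (-0.26 ± 0.0611), Srsf6 (-0.14 ± 0.0398) and Snrpa1 (-0.13 ± 0.0395), which encodes a U2 particle protein, were lower. Hnrnpk, a poly-C binding protein, was lower in NAC (-0.29 ± 0.0585). In liver Srsf1, the founding SR protein, and Snrpa were higher (0.24 ± 0.0543 and 0.17 ± 0.0541), and Sf3b5 was lower in every 8 h array than in every 0 h array (-0.25 ± 0.0343, adjusted p = 2.97e-05). Under median scaling the PFC calls were 3 higher and 3 lower, in place of 2 higher and none lower, and with all 6 groups in 1 fit 4 members passed in AMY and 2 in liver.

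At 120 against 0 h, controls of liver changed most, with 15 of 35 members (42.9%), against 46.4% of all genes. Of these 7 were higher and 8 lower, against 23.9% and 22.5% of all genes. Hnrnpc ranged from 10.73 to 11.01 (median 10.89) at 120 h and from 11.30 to 11.60 (median 11.48) at 0 h, and it fell by 32.6% with no overlap (-0.57 ± 0.0522, adjusted p = 7.12e-09). Srsf5 ranged from 9.31 to 9.68 (median 9.43) at 120 h and from 8.60 to 9.02 (median 8.79) at 0 h, with 55.8% more signal at 120 h and no overlap (0.64 ± 0.0674, adjusted p = 6e-08). Snrpd1, a protein of the Sm ring, ranged from 8.24 to 8.50 (median 8.37) at 120 h and from 8.60 to 9.14 (median 8.94) at 0 h, without overlap (-0.54 ± 0.0714, adjusted p = 1.79e-06). Sf3b5 (-0.29 ± 0.0343) was lower in every 120 h array and Sf3b2 (0.23 ± 0.0411) was higher in every 120 h array than in every 0 h array. Of the others, Hnrnpdl (0.29 ± 0.0884), Srsf4 (0.28 ± 0.0698) and Hnrnph1 (0.17 ± 0.0369) were higher and Srsf3 (-0.25 ± 0.0587) and Hnrnpa2b1 (-0.19 ± 0.0638) were lower at 120 h. Of the 23 calls in controls at 120 h over all tissues, 11 were of members with further detected probes, and another passed in the same direction in 7. In liver the other Hnrnpc probe gave -0.14 (adjusted p = 0.059) and the other Hnrnpa2b1 probe 0.12 (adjusted p = 0.0922). Median scaling gave 5 higher and 13 lower in liver.

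In control brain at 120 against 0 h, 6 of 40 members changed in PFC (15%), against 24.8% of all genes, 2 of 38 in NAC (5.26%), against 6.03%, and none of 38 in AMY, against 12.6%. In AMY 10 members were past an unadjusted p of 0.05, against 27.5% of all genes. In PFC Snrpd1 ranged from 10.05 to 10.31 (median 10.10) at 120 h and from 9.76 to 10.08 (median 9.94) at 0 h, with 7 of 8 arrays at 120 h above all at 0 h (0.21 ± 0.0447, adjusted p = 0.00167), the reverse of its direction in liver. Snrpg (0.17 ± 0.0408) and Srsf4 (0.13 ± 0.035) were higher and Hnrnpf (-0.12 ± 0.04) was lower in PFC. Snrpa was higher by 0.10 ± 0.0337 after quantile normalization and at -0.01 after median scaling, under which 7 PFC members were higher and 14 lower, in place of 4 and 2 (13.4% and 11.4% of all genes). The 2 probes of Hnrnpk passed in opposite directions in PFC, the brightest at -0.21 ± 0.0673 (adjusted p = 0.0209) and the dimmer at 0.20 ± 0.0422 (adjusted p = 0.00119), so no direction is given for that gene. In NAC Snrpa1 (0.16 ± 0.0325) and Hnrnpa1 (0.15 ± 0.0434) were higher at 120 h. Among the other splicing regulators, Tra2a was higher at 8 than at 0 h in control AMY (0.35), NAC (0.27) and PFC (0.47), and lower at 120 h in control liver (-0.61).

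Levels across tissues are given as the median deposited intensity of control arrays, per probe and before normalization, with no comparison between genes. Detection differed for a few members: Hnrnpa3 and Hnrnph2 passed the detection filter in PFC alone, and Hnrnpul1, Sf3b4 and Srsf12 failed it in liver, where Srsf12 was detected on 0 of 47 arrays. The number of the 40 members tested was 38 for AMY, 38 for NAC, 40 for PFC and 35 for liver. Snrpn had medians of 10680 in AMY, 7285 in NAC and 11110 in PFC, against 485 in liver. Hnrnpc stood at 3596, 3625, 3685 and 2989 in AMY, NAC, PFC and liver, and Hnrnpab at 2845, 2572, 3247 and 3365. Srsf2 stood at 1665, 1719, 1703 and 1451. Hnrnpa2b1 had its highest median in liver (559, against 272 to 342 in brain), as did Snrpd3 (644, against 291 to 471), whereas Srsf3 was dimmer in liver (153) than in brain (344 to 377), and Hnrnpdl likewise (403, against 979 to 1259). These medians are of the brightest probe, and other probes could differ. By its other probe Hnrnpa2b1 was highest in PFC (146, against 115 in liver). The other Hnrnpc probe was dimmer in liver (432) than in brain (878 to 937). A second Srsf2 probe gave 907, 859, 1314 and 1227 in AMY, NAC, PFC and liver. Hnrnpul1, at 100 to 118 in brain, and Hnrnph3, at 112 to 126 in all tissues, lay close to background, where a fold change is compressed.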

How the data were processed

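RNA of 191 samples was hybridised to 1-colour Illumina BeadChips, and per the labels the authors deposited bead intensities without normalization together with a detection p-value for every probe and array. The deposited intensity values were log2 transformed with no background correction, and a probe was kept for a tissue if its deposited detection p-value did not exceed 0.05 on over 80% of that tissue's arrays (of 25697 probes, 12588 for AMY, 12659 for NAC, 12835 for PFC and 10530 for liver). Each tissue was quantile normalized on its own, so levels are not comparable across tissues after this step. The authors also deposited processed values on a log2 scale, made with lumi (variance-stabilizing transformation, quantile normalization; version not given in the sources used here), and these served as an alternative. The paper's methods name an outlier screen; no array was left out here.

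Treated and control groups of each tissue and time entered a limma fit of those 2 groups alone (limma 3.58.1, R 4.3.3). Control times were compared in a fit of the 3 control groups of a tissue, and the difference of effects in a fit of its 6 groups. p-values were adjusted by Benjamini-Hochberg over all detected probes of the tissue, and shares of all genes use the brightest probe of each gene. Every p from these fits sets a difference of group means against the spread between mice within groups, moderated across probes. Array number limits the precision.

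The members and gene lists were chosen with earlier results of these data known. Named were, per comparison, up to 8 members past the threshold in each direction (5 in controls), the 2 of smallest p where none passed, members whose effect differed between times, members with probes passing in opposite directions, and up to 4 genes of each other list. Dimmer probes of members that passed alone were added to these after their values were seen. Gene names came from an annotation of the probes in the authors' processed table (14667, of which 13798 had 1 symbol). Old symbols were updated through the Entrez number of the annotation. Hybridization to near-identical copies of a gene was not checked, since probe sequences were not used here. Alternatives were the authors' processed values, no detection filter, median scaling, normexp correction (offset 16), all 6 groups in 1 fit, the mean of a gene's probes, leaving out the array of lowest correlation in each group, and the replicate number as a block. The BeadChip of each array was not used here, so no block for it could be fitted.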

Additional observations from a re-analysis of the deposited data

Results flagged for a closer look

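In 2 of 46 groups of arrays examined, the most distant array of a changed member stood apart by Dixon's criterion, which chance meets in about 1 in 20 groups. Snrpb had a value of 9.92 in the highest treated AMY array at 8 h, and the next was 9.76. Hnrnpc had a value of 11.61 in the lowest control NAC array at 0 h, and the next was 11.77.

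The effect of vapor differed between 8 and 0 h by the test of that difference in 9 calls of 7 members, all by the brightest probe. In liver the difference in log2 fold change was 0.34 for Srsf3, 0.24 for Sf3b5, 0.36 for Srsf6, 0.25 for Snrpa and 0.45 for Srsf2. In NAC it was 0.30 for Srsf3, 0.23 for Srsf2 and -0.18 for Srsf12. In PFC it was -0.37 for Hnrnpdl. Of 4 other ways of processing, the calls of Srsf12 and Snrpa were each lost in 3.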

How the results depend on the processing

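Of 430 recalculated values of named members, 359 kept their direction and their side of the threshold, 70 kept the direction and lost the call, and 1 reversed. Of 152 recalculated counts of changed members, 116 stayed within 1.5 times the value in the report. The 8 liver calls at 8 h were made under all 8 alternatives, whereas the AMY calls were lost most often. The causes of the changes below were not tested. The number of arrays and, for dim members such as Srsf3 in liver, signal over background limit detection.

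Counts of changed members moved as follows. With all 6 groups in 1 fit, treated against control gave 4 (0 h) and 0 (8 h) for AMY, 7 for NAC at 0 h and 12 in liver at 0 h, and controls at 8 against 0 h gave 4 in AMY, 1 in PFC and 2 in liver. The authors' processed values gave 4 in AMY, 6 in NAC and 1 in PFC at 0 h, 3 in PFC at 8 h, 3 in AMY controls at 120 against 0 h, and 1 in AMY for the difference of effects. The mean of a gene's probes gave 6 in NAC at 0 h. Median scaling gave 0 in AMY and 2 in PFC at 8 h, and in controls 1 in AMY, 6 in NAC and 21 in PFC at 120 h and 6 in PFC at 8 h, each against 0 h; it turned Snrpa in PFC controls at 120 against 0 h to -0.007. It moved the median over all probes by -0.025 to 0.035. Without a detection filter, AMY had 1 call at each of 0 and 8 h, and the difference of effects in liver gave 1. Normexp gave 1 (0 h) and 0 (8 h) for AMY, 1 in NAC controls at 120 and 1 in PFC controls at 8 against 0 h, and 3 in liver for the difference of effects. Without the array of lowest correlation in each group, AMY gave 5 at 0 h and 0 at 8 h, NAC 7 at 0 h and PFC 1 at 0 h and 2 at 8 h. Without them the adjusted p was 0.0515 for Hnrnpdl at 0 h, 0.0579 for Hnrnpl and 0.104 for Snrpb at 8 h in AMY, and 0.0998 for Sf3b5 in liver at 0 h.

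No source used here says that a replicate number marks a shared litter, batch or day, and treated and control arrays of a tissue and time come from different mice. Same-numbered treated and control arrays correlated above 0.1 in at most 5 of 8 pairs in any tissue and time. Columns of the non-normalized tables carry no replicate number, so the block was fitted on the authors' processed values, an alternative chosen after seeing the data. With this replicate block, counts were 0 in AMY at 8 h, 7 in NAC at 0 h and 3 in liver at 0 h, and the other counts stayed within 1.5 times.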
